A study of Rattus norvegicus with 16 samples.

Results

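Penk, Pdyn and Pomc code for the precursor proteins from which the classical opioid peptides are cut. These 3 of the 14217 genes with a symbol were found through the platform annotation, which gave exactly 1 of their symbols to 4 of 31042 probe sets that are not controls, 1 for Penk, 2 for Pdyn and 1 for Pomc. All 4 are described here on each of the 16 arrays of the series. Proenkephalin, the product of Penk, is cut into the enkephalins, which chromaffin cells of the adrenal medulla store in the same granules as adrenaline and noradrenaline and release with them. Prodynorphin, the product of Pdyn, gives the dynorphins and neoendorphins, which act mainly on the kappa opioid receptor. Proopiomelanocortin, the product of Pomc, is made chiefly in the pituitary, where it gives corticotropin, the melanocortins and beta-endorphin. Corticotropin is the hormone that drives steroid synthesis in the adrenal cortex.

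The series asked how gene expression in adrenal lesions of rats with mutant p27Kip1, an inhibitor of the cell cycle, differs from that of wild-type adrenal medulla of similar age. The labels write the mutant gene as p27Kip1 (Cdknb1), whose current symbol is Cdkn1b. The hyperplasia group held 8 arrays of enlarged adrenal medulla of mutant rats aged 2 months, and it was set against 2 pools of adrenal medulla of wild-type rats aged 2 months, called young wild type. The pheochromocytoma group held 4 arrays of tumours of chromaffin cells of mutant rats aged 8 or 9 months. Its comparison group, older wild type, held 2 pools, the first of rats aged 10 months and the second of a 12-month-old and a 17-month-old rat. The pools combined 2 animals each, apart from the second young pool, which combined 3, so their spread is not that between animals. All rats had the strain label Sprague–Dawley white eye/Wistar–Kyoto and were kept free of specific pathogens. Total RNA was labelled with biotin and read on Affymetrix arrays, on which a probe set is a group of short probes for 1 transcript. Every value below is a log2 signal, so a difference of 1 is a 2-fold difference.

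The promoter sequences of 2 of the genes are shown because their letters around the start differ in where the TATA box lies. They are RefSeq sequences of the rat build GRCr8, 250 bases before and 50 bases after the annotated start, written 5′ to 3′ on the gene's own strand, with the letters TATAAA in capitals.
Pdyn (chr3:137366454-137366753, minus strand): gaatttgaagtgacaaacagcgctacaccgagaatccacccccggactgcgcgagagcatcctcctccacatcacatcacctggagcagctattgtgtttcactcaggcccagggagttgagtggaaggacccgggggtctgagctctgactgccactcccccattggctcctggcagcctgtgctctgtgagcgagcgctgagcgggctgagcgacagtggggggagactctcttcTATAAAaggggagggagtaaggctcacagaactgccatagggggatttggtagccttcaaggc
Pomc (chr6:32659103-32659402, plus strand): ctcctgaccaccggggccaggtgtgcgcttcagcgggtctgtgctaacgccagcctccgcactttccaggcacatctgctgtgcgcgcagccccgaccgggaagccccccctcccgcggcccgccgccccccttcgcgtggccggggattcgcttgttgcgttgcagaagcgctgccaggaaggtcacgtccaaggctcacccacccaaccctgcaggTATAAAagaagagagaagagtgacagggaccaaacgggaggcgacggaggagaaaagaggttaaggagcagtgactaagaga
In Pdyn the first T of TATAAA lay 13 bases before the annotated start, and in Pomc it lay 32 bases before it. The start used for Pdyn is the outer end of its gene, at 137366503. The Pomc gene is annotated from 32659137, which lies inside its window, before the start used there. The 2 distances are therefore not measured from like starts. TATAAA was found on either strand in 14.2% of 33469 promoters of this length, and on the gene's own strand in 8.8%. TGACG, the letters of a short form of the CRE, to which factors of the CREB family can bind, was in neither of the 2 windows on either strand, against 21.2% of all promoters. These matches describe letters only. The promoter of Penk is named only.

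The arrays resembled each other closely. Array medians lay between 6.51 and 6.61 and first quartiles between 4.71 and 4.93. Over all probe sets, 2 arrays of 1 group correlated at 0.981 to 0.996, and 2 of different groups at 0.940 to 0.987. All 11 measured chromaffin markers of 12 listed (such as Th and Dbh, which make catecholamines) were above the median of every array, and 9 were above the 90th percentile of every array. RNA of chromaffin cells was thus present on every array. Of 10 measured adrenal cortex markers, 9 were also above the median of every array and 7 above the 90th percentile of every array. All 6 pituitary hormone markers were below the median of every array. The level of Xist, which is made from a silenced X chromosome, went against the labelled sex on 6 arrays, 4 of hyperplasia (replicates 1, 2, 5 and 6) and both young wild-type pools. It was 11.29 to 12.66 on 9 arrays and 2.86 to 4.32 on the other 7. The hexokinase control, whose 3′ minus 5′ signal grows as RNA is shorter or amplification less complete, spanned 1.21 to 1.63 on hyperplasia arrays, with 1.07 to 1.18 on young wild-type arrays. It spanned 2.16 to 3.30 on pheochromocytoma arrays, with 2.29 to 2.92 on older wild-type arrays. Cdkn1b itself had 2 probe sets. One had values of 11.58 to 11.86 in hyperplasia, with 10.89 to 11.04 in young wild type, and of 11.39 to 11.70 in pheochromocytoma, with 10.45 to 10.73 in older wild type. The other had 5.45 to 6.81 in hyperplasia, with 6.84 to 6.96 in young wild type, and 3.83 to 4.40 in pheochromocytoma, with 4.07 to 4.21 in older wild type. Whether either probe set covers the mutated part was not tested, so neither checks the labels.

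Penk gave a strong signal in every group, and its largest spread was within hyperplasia, not between the groups. Its values in hyperplasia replicates 1 to 8 were 11.37, 11.34, 8.35, 8.18, 10.61, 11.11, 11.48 and 11.45. The young wild-type pools had 11.00 and 11.17. Replicates 3 and 4 of hyperplasia stood far below the other 6, and 5 of those 6 lay above the lower pool. In pheochromocytoma Penk was 10.46, 10.80, 11.36 and 10.00, and in older wild type it was 11.07 and 10.51. The tumours spanned the whole range of the older pools and beyond it on both sides.

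**Figure D1:**
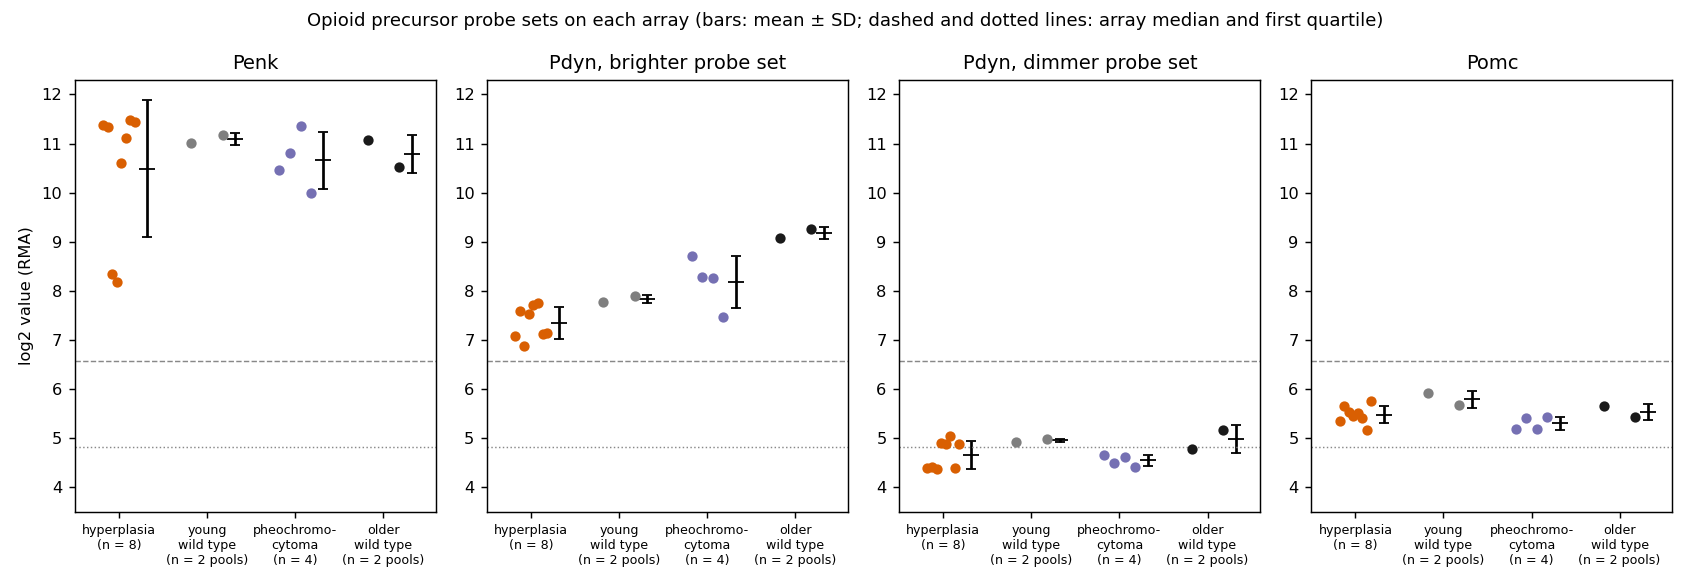
The log2 value of each opioid precursor probe set on every array (points), by group, with the group mean ± SD beside them; the dashed and dotted lines are the mean array median and first quartile. Hyperplasia replicates 3 and 4 have Penk at 8.35 and 8.18, while the other 6 lie between 10.61 and 11.48.

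The lowest and highest Penk values in hyperplasia were 3.30 apart, a 9.86-fold range, against 0.17 in young wild type, 1.36 in pheochromocytoma and 0.55 in older wild type. These ranges are not like measures, as they span 8 arrays, 2 pools, 4 arrays and 2 pools, and a range grows with the number of arrays. The SD within hyperplasia was 1.40, where the median over all probe sets was 0.181. Only 25 of 31042 probe sets had a larger SD in hyperplasia. Even the lowest Penk value there was at the 70.8th percentile of its array, so the gene's signal was above most others on each array. Replicates 3 and 4 are both labelled female and both have a high Xist level, while the 4 hyperplasia arrays with a low Xist level had Penk within 11.34 to 11.48. The other 2 arrays with a high Xist level, replicates 5 and 6, had 10.61 and 11.11. The part of sex in this spread was not tested, because the labels and Xist disagree.

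No difference in Penk passed the test, which was limma's moderated test over all 31042 probe sets with Benjamini-Hochberg adjustment and a threshold of 0.05. Penk averaged 10.49 ± 1.40 in hyperplasia (SD, n = 8) and 11.09 ± 0.12 in young wild type (SD, n = 2). The difference was -0.60 ± 0.77 (SE), with a 95% interval of -2.22 to 1.02 and an adjusted p of 0.7015. With 1 array left out it ranged from -0.74 to -0.27, the smallest without hyperplasia replicate 4. The exact two-sided permutation test of the array labels gave p = 0.8222. Without the 4 hyperplasia arrays whose Xist level went against the label, the difference was -1.22 (adjusted p = 0.5024 by limma). Penk averaged 10.65 ± 0.57 in pheochromocytoma (SD, n = 4) and 10.79 ± 0.39 in older wild type (SD, n = 2). That difference was -0.14 ± 0.84 (SE), from -1.91 to 1.64, with an adjusted p of 0.936 and an exact permutation p of 0.7333. Both intervals leave room for a change of over 2-fold in either direction. They rest on 1 spread shared over the 4 groups, with a within-group SD of 1.11. Hyperplasia thus widens the tumour interval beyond what the SDs of the tumours and older pools would give.

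The genes whose pattern was most like that of Penk were looked for among 9481 other genes with a mean signal above the median. Within the 8 hyperplasia arrays the closest was Ppp1r17, which codes for an inhibitor of protein phosphatases, at a Pearson r of 0.989. Its values in hyperplasia replicates 1 to 8 were 9.62, 9.63, 4.63, 5.26, 8.82, 9.06, 9.85 and 9.38, and the young pools had 9.92 and 9.68. In pheochromocytoma Ppp1r17 was 8.67, 6.39, 6.94 and 8.39, lowest in replicates 2 and 3, which had the most Penk of the tumours. The older pools had 10.53 and 9.62. Within hyperplasia, replicates 3 and 4 were again the low arrays. After leaving out these 2 arrays, which are the farthest from the median of Penk, r was 0.889 over the remaining 6. Klhl42 (0.962, and 0.841 without them), Tmem87b (0.962 and 0.620), Cartpt (0.960 and 0.163) and Pak3 (0.959 and 0.494) followed. The likeness of Cartpt and Pak3 within hyperplasia therefore rests mainly on replicates 3 and 4.

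Over all 16 arrays the closest gene was Cartpt, the precursor of the CART neuropeptide, at r = 0.898 (Spearman's rho 0.627). Its values in hyperplasia were 10.74, 11.11, 8.30, 8.87, 11.08, 11.31, 11.38 and 11.34, against 11.72 and 11.56 in young wild type. In pheochromocytoma Cartpt was 11.18, 10.50, 11.98 and 9.50, against 11.80 and 11.09 in older wild type. Replicates 3 and 4 were the lowest hyperplasia arrays for Cartpt too, and pheochromocytoma replicate 4 was the lowest tumour for both genes. Without hyperplasia replicates 3 and 4, r was 0.637 for Cartpt. Herc1 (0.849), Apeg3 (0.832), Ramac (0.821) and Ankrd55 (0.790) came next, and fell to 0.619, 0.424, 0.161 and 0.569 without those arrays. All these points share the same 16 arrays and their normalization, the genes were picked for their r, and no p is given.

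**Figure D2:**
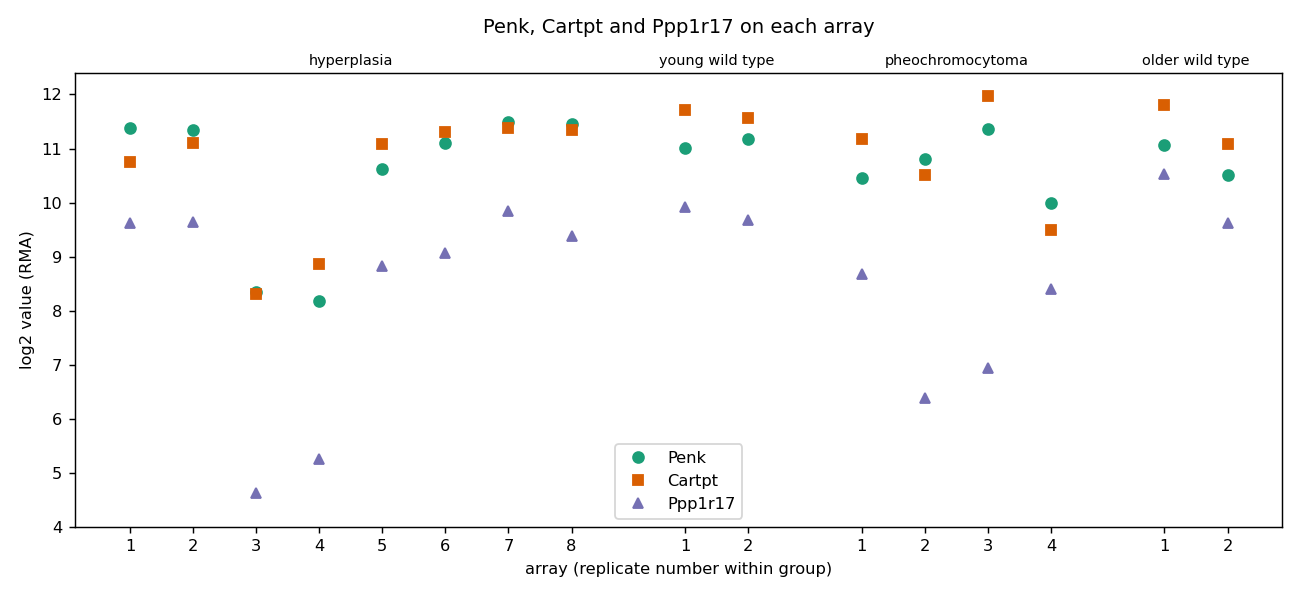
Log2 values of Penk (circles), Cartpt (squares) and Ppp1r17 (triangles) on each array, by replicate number within the 4 groups. All 3 genes are lowest within hyperplasia on replicates 3 and 4, at 8.35 and 8.18 for Penk, 8.30 and 8.87 for Cartpt and 4.63 and 5.26 for Ppp1r17.

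The transcription factors listed as acting on opioid genes were also looked at array by array, and those named here were picked after their values were seen. Fos was 11.03 and 10.96 on hyperplasia replicates 3 and 4, against 7.09 to 9.06 on the other 6. Egr1 was 12.77 and 12.67 on the same 2 arrays, against 9.11 to 11.94 on the others. The hyperplasia arrays with the lowest Penk had the highest Fos and Egr1. Junb was also highest on them, at 9.22 and 9.57, against 8.26 to 9.21 on the other 6. Creb1 was lowest on them, at 8.96 and 8.99, against 9.21 to 9.75. So was Stat3, at 10.49 and 10.60, against 10.87 to 11.43. Not all genes of the list followed. Jun was 11.35 and 11.51 on these 2 arrays, against 11.36 to 11.64 on the other 6. Fosb was highest on replicate 3, at 6.23, but was 5.65 on replicate 4, against 5.91 on replicate 6. In the tumours the order of Penk and Fos was not kept: pheochromocytoma replicates 2 and 3 had Fos of 11.84 and 11.11 and the higher Penk values of 10.80 and 11.36. Nr4a1 was 10.40 to 10.91 on hyperplasia replicates 3 to 6, the arrays with a high Xist level, and 7.03 to 8.00 on the other 4.

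Pdyn had differences that passed the test in 3 of the 5 comparisons, all in 1 of its probe sets. It has 2 probe sets, called here the brighter, designed on an expressed sequence tag, and the dimmer, designed on the RefSeq mRNA. The brighter one was 7.09, 7.58, 6.87, 7.52, 7.71, 7.74, 7.11 and 7.14 in hyperplasia, against 7.78 and 7.90 in young wild type. The tumours had 8.71, 8.28, 8.25 and 7.46, against 9.08 and 9.26 in older wild type. Every lesion array lay below both pools of its comparison group, by at least 0.038 in hyperplasia and by at least 0.37 in the tumours. The rats with tumours were aged 8 or 9 months and those of the older pools 10 to 17 months. The part of this age gap in the tumour difference was not tested.

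The brighter Pdyn probe set averaged 8.18 ± 0.52 in pheochromocytoma (SD, n = 4) and 9.17 ± 0.13 in older wild type (SD, n = 2). It fell by 0.99 ± 0.29 (SE) in the tumours, or 1.99-fold, with a 95% interval of -1.60 to -0.39 and a limma adjusted p of 0.02972. The exact permutation p was 0.0667, the smallest that 4 against 2 arrays allow. In hyperplasia it averaged 7.35 ± 0.33 (SD, n = 8), against 7.84 ± 0.08 in young wild type (SD, n = 2). That difference of -0.49 ± 0.26 (SE) did not pass, with an interval of -1.04 to 0.06, an adjusted p of 0.2785 and an exact permutation p of 0.0889. Whether the lesion effect itself differed between the tumour and hyperplasia stages was tested as 1 contrast, which gave -0.50 ± 0.39 and an adjusted p of 0.6588.

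The call in pheochromocytoma was fragile. Without pheochromocytoma replicate 4, the array with the least Pdyn, the difference was -0.76 (adjusted p = 0.05955 by limma). It was -1.08 (adjusted p = 0.06624) without older wild-type replicate 1 and -0.91 (adjusted p = 0.2441) without older wild-type replicate 2, so the call needed both pools. Over all the alternatives tried, its adjusted p ranged from 0.01134 to 0.8037.

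The brighter Pdyn probe set also differed with age. It was higher by 1.33 ± 0.33 (SE) in older than in young wild type, or 2.52-fold, with an interval of 0.64 to 2.03 and an adjusted p of 0.008233 in limma. This call was lost without young wild-type replicate 1 (1.28, adjusted p = 0.05309) and without older wild-type replicate 2 (1.25, adjusted p = 0.05427). In pheochromocytoma it was higher than in hyperplasia by 0.83 ± 0.20, or 1.78-fold, with an interval of 0.40 to 1.26 and an adjusted p of 0.003512, a call that no single array removed. The dimmer probe set differed by -0.11 ± 0.14 (interval -0.41 to 0.18) in that comparison. Age and stage cannot be told apart in the last difference. The hexokinase 3′ minus 5′ signal was also higher in both older groups, and its part in either difference was not tested.

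**Figure D3:**
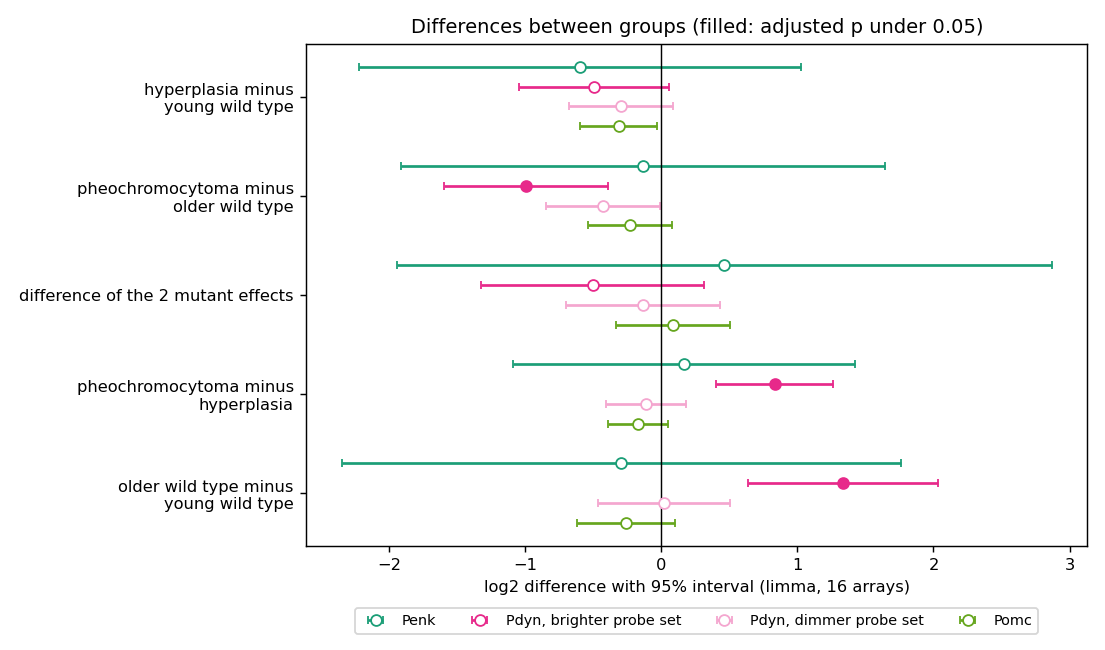
Log2 differences of the 4 opioid precursor probe sets in 5 comparisons with 95% intervals from limma over 16 arrays; filled points have an adjusted p under 0.05, and the third comparison is pheochromocytoma minus older wild type, less hyperplasia minus young wild type. Filled points occur only for the brighter Pdyn probe set, at -0.99 against older wild type, 0.83 against hyperplasia and 1.33 between the wild-type ages.

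Markers of the adrenal cortex also had lower mean levels on the lesion arrays. The mean of the 10 measured cortex markers, of 14 listed (such as Star and Cyp11a1, which serve the first steps of steroid synthesis), was 10.45 to 11.79 in pheochromocytoma and 12.09 to 12.41 in older wild type. On hyperplasia arrays it lay between 10.62 and 11.41, with 11.73 and 11.90 on the young wild-type arrays. None of these markers was higher past the threshold. In pheochromocytoma 8 of the 10 were lower, against 5.95% of all probe sets, and in hyperplasia 3 of the 10, against 3.08%. In the 4 tumours the order of the brighter Pdyn probe set and of the cortex mean was the same, with cortex means of 11.79, 11.29, 11.17 and 10.45 in replicates 1 to 4. The 8 hyperplasia arrays did not keep that order: replicates 7 and 8 had high cortex means of 11.33 and 11.41 but Pdyn of 7.11 and 7.14, while replicates 5 and 6, at 11.09 and 11.02, had the highest Pdyn. With the cortex mean as a covariate, the Pdyn difference was -0.23 (adjusted p = 0.8037 by limma) in pheochromocytoma and 0.031 (adjusted p = 0.9755) in hyperplasia. Since the cortex means of lesion and wild-type arrays did not overlap in either comparison, this fit cannot separate cortex content from the lesion. The difference between pheochromocytoma and hyperplasia was 0.76 (adjusted p = 0.001035) and that between older and young wild type 1.02 (adjusted p = 0.01341) in that fit, and both kept their call. With the mean of the chromaffin markers as the covariate the difference between older and young wild type was 0.76 and lost its call (adjusted p = 0.3062). Fewer cells of a type and less RNA per cell cannot be told apart in such tissue.

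**Figure D4:**
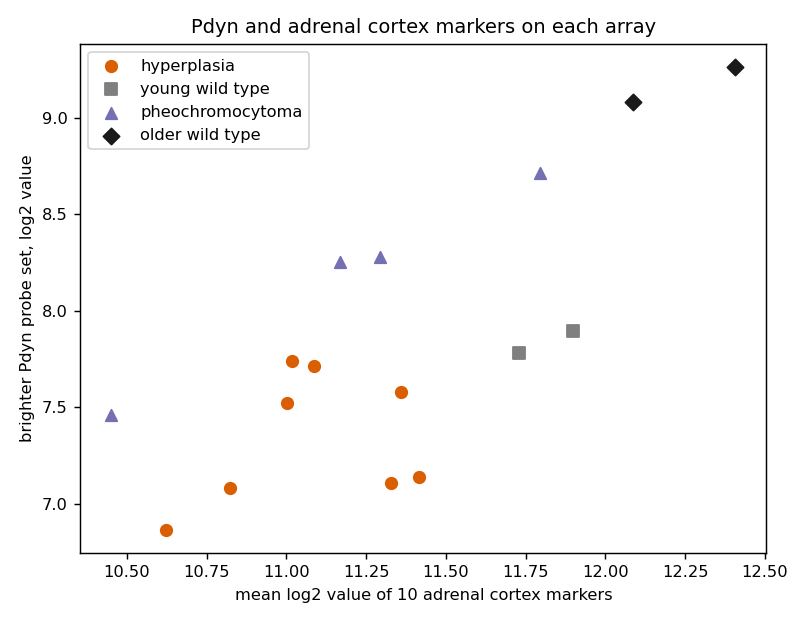
The brighter Pdyn probe set (log2 value, vertical) against the mean log2 value of 10 adrenal cortex markers (horizontal) on each of the 16 arrays, by group. The pheochromocytoma array with the lowest cortex mean, 10.45, has the lowest Pdyn of the tumours, 7.46, and both older wild-type pools lie highest on both axes.

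The dimmer Pdyn probe set lay close to the first quartile of the arrays, at the 18.1st to 30.1st percentile, and no detection calls were used here to say whether it was above background. In hyperplasia it was 4.39, 4.42, 4.36, 4.89, 4.89, 5.04, 4.39 and 4.88, against 4.93 and 4.98 in young wild type. The pheochromocytoma arrays had 4.66, 4.49, 4.61 and 4.41, against 4.77 and 5.17 in older wild type. Of the hyperplasia arrays 7 lay below both young pools, and all 4 tumours lay below both older pools. The differences of -0.30 ± 0.18 (SE, adjusted p = 0.3579 by limma) and -0.43 ± 0.20 (adjusted p = 0.1594) did not pass. Between older and young wild type, where the brighter probe set was higher, the dimmer one differed by 0.019 ± 0.23 (interval -0.46 to 0.50). Both the age difference and the difference between pheochromocytoma and hyperplasia thus rest on 1 of the 2 Pdyn probe sets, and with the mean of both probe sets in place of each the age difference (0.68, adjusted p = 0.06097) and the difference between pheochromocytoma and hyperplasia (0.36, adjusted p = 0.07532) lost their calls.

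The genes most like the brighter Pdyn probe set over the 16 arrays were Ppif (r = 0.936), which codes for cyclophilin D of the mitochondrial matrix, Tmem14c (0.933), a mitochondrial transporter used in haem synthesis, Frmd5 (0.921), Smim22 (0.919) and Entpd4 (0.918), a nucleotide-cleaving enzyme of the Golgi. Without both older wild-type pools, the arrays farthest from the median, r was 0.864, 0.854, 0.839, 0.826 and 0.866. Ppif, for example, averaged 6.76 ± 0.13 in hyperplasia (SD, n = 8), 7.19 ± 0.14 in young wild type (n = 2), 7.53 ± 0.55 in pheochromocytoma (n = 4) and 8.39 ± 0.25 in older wild type (n = 2), the same order of means as Pdyn. These r describe arrays that share group differences in age and tissue, and carry no p.

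Pomc had low values in every group, and no difference passed in the fit used throughout. With quantile normalization of the arrays, the difference between pheochromocytoma and hyperplasia was -0.27 (limma adjusted p = 0.03496), against -0.17 ± 0.10 (SE, adjusted p = 0.1981) in the fit used throughout. Its probe set, designed on an expressed sequence tag, lay at the 29.7th to 41.5th percentile of the arrays, below the median on all 16. In hyperplasia it was 5.35, 5.65, 5.52, 5.44, 5.51, 5.42, 5.17 and 5.76, against 5.92 and 5.66 in young wild type. Only replicate 8 of hyperplasia was above the lower pool. The 4 tumours had 5.18, 5.41, 5.19 and 5.42, against 5.64 and 5.42 in older wild type, where 1 tumour lay just above the lower pool. The differences were -0.31 ± 0.13 (SE, interval -0.60 to -0.03, adjusted p = 0.1725 by limma, exact permutation p = 0.0667) in hyperplasia and -0.23 ± 0.15 (adjusted p = 0.3189, exact permutation p = 0.2000) in pheochromocytoma. The hormone markers of the pituitary, the tissue that makes most Pomc, were below every array's median as well.

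The genes most like Pomc were Ltbp4 (r = 0.807) and Ltbp2 (0.795), which code for proteins that bind latent TGF-beta in the matrix, Timp3 (0.783), an inhibitor of matrix metalloproteinases, Glmp (0.781), a lysosomal membrane protein, and Cryab (0.777), a small heat shock protein. Without young wild-type replicate 1 and hyperplasia replicate 8, r was 0.679, 0.679, 0.692, 0.587 and 0.586. Within-group spread of Pomc was only 0.167, so these r follow small shifts of a low signal.

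Of the 4 opioid precursor probe sets, 0 passed in hyperplasia against young wild type, where 7.40% of all probe sets passed (4.32% higher and 3.08% lower, and 7045 probe sets had an unadjusted p under 0.05). In pheochromocytoma against older wild type 1 of the 4 passed, lower, where 14.3% of all passed (8.31% higher and 5.95% lower). In the contrast of these 2 lesion effects 0 of the 4 passed, with 0.0258% of all probe sets passing and 3461 at an unadjusted p under 0.05. Between pheochromocytoma and hyperplasia 1 of the 4 passed, against 40.7% of all, and between older and young wild type 1 of the 4, against 23.7%. With 4 members, 1 probe set decides each of these counts, and they say nothing of the members as a group. The background itself rests on single pools: 564 probe sets passed in hyperplasia without young wild-type replicate 2, against 2296 with it, and 596 in pheochromocytoma without older wild-type replicate 2, against 4425.

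The other genes of opioid signalling were taken from lists written from general knowledge. All 6 listed opioid receptor and nociceptin genes were measured, and 0 of 6 passed in either comparison, where 7.40% and 14.3% of all probe sets did. The median difference was 0.020 in hyperplasia and -0.34 in pheochromocytoma, where the medians over all probe sets were -0.023 and -0.014. Oprd1, the delta receptor that enkephalins bind, lay between 4.62 and 5.28 in hyperplasia, with 4.57 and 4.62 in young wild type, a difference of 0.29 ± 0.15 (SE, limma adjusted p = 0.2534). Oprm1, the mu receptor, was 5.11 to 5.29 in pheochromocytoma and 5.46 to 5.70 in older wild type, and differed by -0.38 ± 0.16 (adjusted p = 0.1214). Pnoc, the precursor of nociceptin, was 3.89 to 4.21 in the tumours and 4.32 to 4.56 in the older pools, differing by -0.42 ± 0.16 (adjusted p = 0.09369), and by -0.14 (adjusted p = 0.6342) in hyperplasia. The tumours lay below both pools for Oprm1 and Pnoc, at signals near or under the first quartile of the arrays.

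Of the 12 measured genes of prohormone processing, of 13 listed, 1 rose, 1 fell and 10 did not pass in hyperplasia, and 0 rose, 1 fell and 11 did not pass in pheochromocytoma. Among all probe sets 7.40% passed in hyperplasia and 14.3% in pheochromocytoma, so these counts say nothing of the list as a group. Furin, a prohormone convertase of the trans-Golgi, lay between 8.32 and 8.75 in hyperplasia, with 7.80 and 7.94 in young wild type, and rose by 0.64 ± 0.11 (SE, limma adjusted p = 0.003402). Pcsk5, another convertase, was 6.14 to 7.40 in hyperplasia, against 7.78 and 8.02 in young wild type, and fell by 1.08 ± 0.29 (adjusted p = 0.0358). In pheochromocytoma Pcsk5 was 7.02, 6.94, 6.89 and 6.37, against 8.35 and 9.02 in older wild type, and fell by 1.88 ± 0.32 (adjusted p = 0.001854). Rnpep, which trims basic residues, differed by 0.39 ± 0.13 in the tumours and did not pass (adjusted p = 0.0596). Pcsk2 and Cpe, the convertase and carboxypeptidase of chromaffin granules that cut proenkephalin, are among the genes that did not pass in either comparison.

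Of the 11 measured genes of opioid peptide breakdown, of 12 listed, 1 rose, 1 fell and 9 did not pass in hyperplasia, and 1 rose, 3 fell and 7 did not pass in pheochromocytoma. The shares of all probe sets that passed were 7.40% and 14.3%, and a list this short says nothing as a group. Mme codes for neprilysin, the membrane enzyme known as enkephalinase. Its values were 5.34 to 6.54 in hyperplasia, against 7.27 and 7.81 in young wild type, and fell by 1.44 ± 0.33 (SE, limma adjusted p = 0.01566). Tumour values were 6.00, 5.93, 5.20 and 4.91, against 7.10 and 8.33 in older wild type, and fell by 2.21 ± 0.36, or 4.62-fold (adjusted p = 0.001414). All lesion arrays lay below the pools of their comparison group. Dpp4, a dipeptidyl peptidase of the cell surface, fell by 1.18 ± 0.23 (adjusted p = 0.003557) and Anpep, aminopeptidase N, fell by 0.60 ± 0.19 (adjusted p = 0.04443) in the tumours. Ece2 rose there by 0.54 ± 0.14 (adjusted p = 0.0177), while its second probe set did not pass. Thop1, a peptidase of the cytosol, rose in hyperplasia by 0.38 ± 0.10 (adjusted p = 0.03452).

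**Figure D5:**
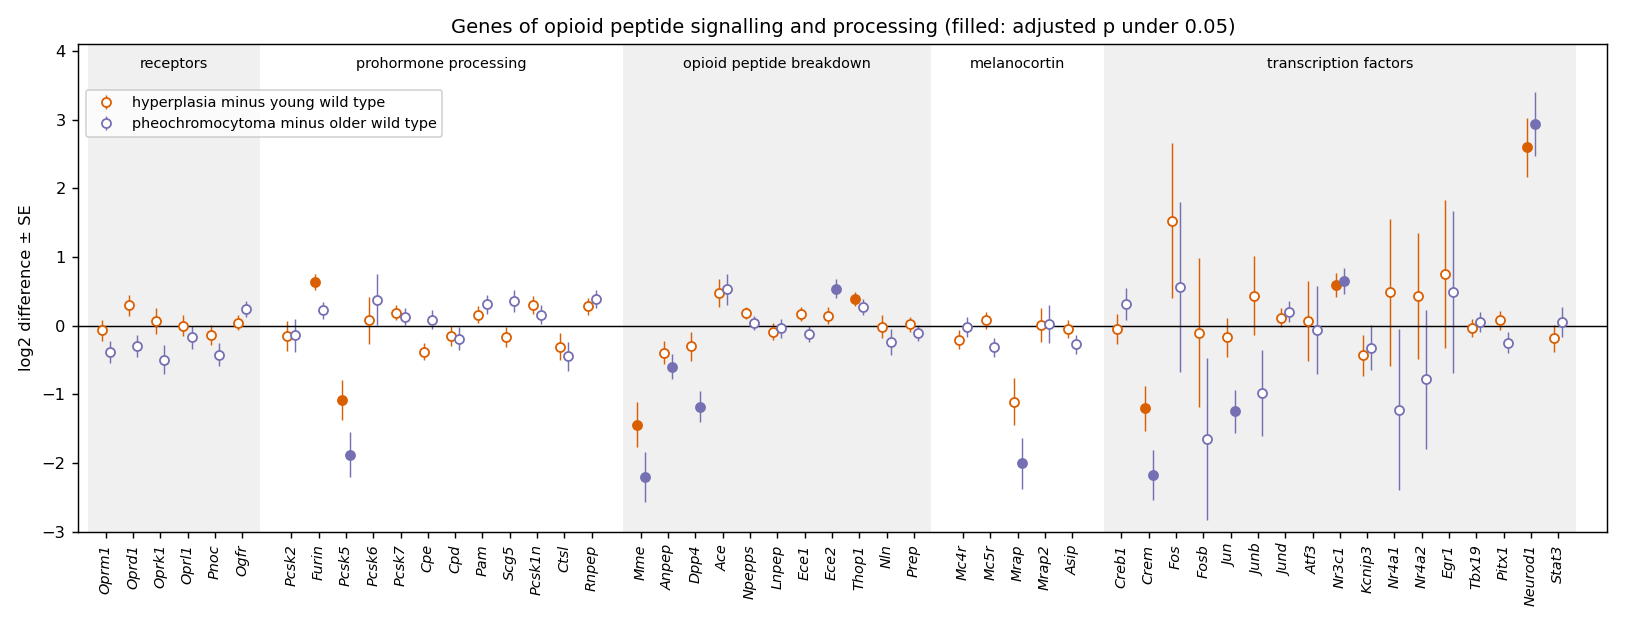
Log2 differences ± SE of the measured genes of 5 lists, in hyperplasia minus young wild type and pheochromocytoma minus older wild type; filled points have an adjusted p under 0.05 in limma. Mme, Pcsk5 and Crem lie below 0 and Neurod1 and Nr3c1 above 0 with filled points in both comparisons, and the 6 receptor and nociceptin genes have no filled point.

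Of the melanocortin receptors and partners, through which peptides cut from proopiomelanocortin act, 5 of 9 listed genes were measured. None of the 5 passed in hyperplasia, where 7.40% of all probe sets did. In pheochromocytoma 1 fell and 4 did not pass, where 14.3% of all passed. Mrap, the accessory protein of the corticotropin receptor and a gene of the adrenal cortex, was 10.58, 9.88, 9.84 and 9.23 in pheochromocytoma, against 11.31 and 12.47 in older wild type. It fell by 2.00 ± 0.37 (SE, limma adjusted p = 0.002903), and its difference in hyperplasia was -1.11 ± 0.34 (adjusted p = 0.05876). The hyperplasia difference passed in 9 of 29 alternatives, for example with only the groups compared (adjusted p = 0.02738), and was -0.21 (adjusted p = 0.7215) with the cortex mean as a covariate. Mc4r in hyperplasia (-0.21, adjusted p = 0.4055) and Mc5r in pheochromocytoma (-0.32, adjusted p = 0.131) did not pass, at values of 4.14 to 5.20 over the arrays.

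Of the 17 measured transcription factors reported to act on these genes, of 18 listed, 2 rose, 1 fell and 14 did not pass in hyperplasia, and 2 rose, 2 fell and 13 did not pass in pheochromocytoma. Over all probe sets 7.40% and 14.3% passed, and counts from so few genes say nothing of the list as a group. Neurod1, a factor of neuronal and endocrine differentiation that acts on the Pomc promoter in the pituitary, was 6.91 to 8.91 in hyperplasia, against 5.67 and 5.14 in young wild type, and rose by 2.59 ± 0.42 (SE, limma adjusted p = 0.00189). The pheochromocytoma values were 8.07, 8.00, 9.09 and 8.05, against 5.47 and 5.27 in older wild type, a rise of 2.93 ± 0.46 (adjusted p = 0.001128). Pomc itself passed in neither comparison. Crem, whose short form ICER represses genes with a CRE, fell by 1.20 ± 0.33 (adjusted p = 0.0365) in hyperplasia and fell by 2.18 ± 0.36 (adjusted p = 0.001443) in pheochromocytoma. Of its other 5 probe sets, 3 also fell past the threshold in hyperplasia and all 5 in pheochromocytoma. Jun fell by 1.25 ± 0.31 (adjusted p = 0.01486) in the tumours. Nr3c1, the glucocorticoid receptor, rose by 0.59 ± 0.17 (adjusted p = 0.04906) in hyperplasia and by 0.65 ± 0.19 (adjusted p = 0.03182) in pheochromocytoma, but its second probe set passed in neither and differed by -0.12 in the tumours.

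Most of these calls in the pathway lists depended on single pools. Without the 4 hyperplasia arrays whose Xist level went against the label, 2 of the 7 calls in hyperplasia remained, those of Furin and Neurod1. In pheochromocytoma 8 of the 10 remained, all but Anpep and Nr3c1, whose differences stayed at -0.60 and 0.65. In hyperplasia Thop1 was then 0.39 (0.38 with all arrays), Nr3c1 0.61 (0.59) and Mme -1.54 (-1.44). Crem was -1.08 (-1.20) and Pcsk5 -0.94 (-1.08). That fit had fewer arrays, and 689 of all probe sets passed in hyperplasia, against 2296. Of the same 7 calls, 1, that of Neurod1, remained without young wild-type replicate 1, and 1, that of Furin, remained without young wild-type replicate 2. Furin was then 0.57 (adjusted p = 0.06348 by limma) without the first pool and Neurod1 2.33 (adjusted p = 0.05619) without the second. In the same order of pools, Mme was -1.71 and -1.17, Pcsk5 -1.20 and -0.96, Crem -0.95 and -1.45, Nr3c1 0.70 and 0.48, and Thop1 0.25 and 0.52. Single hyperplasia arrays also ended calls there: replicates 1, 3, 4 or 5 for Crem (-1.18 to -1.16), 3 or 4 for Pcsk5 (-1.07 to -1.05) and 1 for Thop1 (0.38). Nr3c1 in hyperplasia lost its call without any of 12 of the 16 arrays (0.48 to 0.70). Of the 10 calls in pheochromocytoma, 9 remained without older wild-type replicate 1 and 2 without older wild-type replicate 2. Without the second older pool Mme differed by -1.59, Pcsk5 by -1.54, Mrap by -1.42, Crem by -1.44, Dpp4 by -0.70, Jun by -0.60, Nr3c1 by 0.53 and Ece2 by 0.50, none of them past the threshold. Anpep differed by -0.29 without the first older pool, and also lost its call without pheochromocytoma replicate 2, 3 or 4 (-0.60 to -0.55) or without any of 4 hyperplasia arrays (replicates 3, 4, 6 and 7), which left its difference at -0.60. Nr3c1 also lost its call without pheochromocytoma replicate 1, 2 or 4 (0.57 to 0.64). Neurod1 in pheochromocytoma kept its call whichever array was left out. The cortex means of lesion and wild-type arrays did not overlap in either comparison, so calls lost with that covariate do not show its part. With the cortex mean as a covariate 1 of the 7 calls in hyperplasia remained, that of Furin (0.66, adjusted p = 0.04431), and 0 of the 10 in pheochromocytoma. There Mme differed by -1.06, Mrap by -0.68, Pcsk5 by -1.15, Dpp4 by -0.72, Jun by -0.53, Nr3c1 by 0.37 and Neurod1 by 2.29, while Crem was -1.81 (-2.18 without the covariate), Anpep -0.59 (-0.60) and Ece2 0.62 (0.54). In hyperplasia Mme differed by -0.66, Pcsk5 by -0.58, Crem by -0.95, Nr3c1 by 0.40, Neurod1 by 2.16 and Thop1 by 0.47 (0.38 without the covariate) in that fit. Anpep, Ece2 and Thop1 thus lost their calls at about the same or a larger difference. In the contrast of the 2 lesion effects 0 genes of any of the 5 lists passed.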

How the data were processed

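Total RNA of 16 rat adrenal samples was measured on Affymetrix arrays. The deposited values are log2 signals, 1 per probe set and array, made by the authors with RMA per the submitters' processing notes (version: not given in the sources). RMA corrects background, normalizes quantiles and summarises probes. The sources used here do not say which arrays shared a normalization. Of 31099 probe sets, 57 controls were left out. Exactly 1 symbol belonged to 20826 probe sets, several to 436 and none to 9780; 20758 matched a rat gene table by Entrez identifier and 0 symbols changed.

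The linear model of limma 3.58.1 (R 4.3.3) was fitted over 4 groups on all 16 arrays (12 residual degrees of freedom, median prior 3.98), without a sex covariate because Xist went against the labelled sex on 6 arrays. The fit was tested on simulated data. An adjusted p under 0.05 passed, two-sided, with Benjamini-Hochberg adjustment over all 31042 probe sets. The p-values measure the spread between these arrays and pools. The smallest p of the exact permutation test was 0.0222 for 8 against 2 arrays and 0.0667 for 4 against 2.

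The members and the gene lists were chosen with earlier results of these data known. Of several probe sets, the one of highest mean stands for the gene. From each list up to 4 passing genes with the largest difference are named, or up to 2 with the smallest p where fewer than 2 passed, and for each member the 5 genes of highest Pearson r. The transcription factors described array by array beside Penk were named after their values were seen. Alternatives were sex and Xist covariates, fewer arrays, other priors, filters and normalizations, array weights, a replicate block, marker covariates, gene means and leaving out each array. The arrays' number limits the precision.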

Additional observations from a re-analysis of the deposited data

Results flagged for a closer look

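Neurod1 in pheochromocytoma had 1 array apart from the rest of its group. Replicate 3 was 9.09, while the other 3 tumours lay between 8.00 and 8.07. It was the only such case among 58 groups of arrays looked at, where chance gives about 1 in 20. The rise of Neurod1 in pheochromocytoma remained past the threshold without that array.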

How the results depend on the processing

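For the 4 member probe sets in the 2 lesion comparisons, 213 of 228 alternative values kept their direction and their side of the threshold, 8 lost a call and 7 changed sign. Only the brighter Pdyn probe set in pheochromocytoma was called at the start, and all 8 losses fell among its 29 alternatives. For the rest, keeping their side means staying uncalled. Leaving out an array of neither group compared cannot change a difference, only its p. The fall of the brighter Pdyn probe set in pheochromocytoma lost its call in 5 settings: it was -0.99 with only the groups compared, -0.93 with array weights, -0.80 with a replicate block, -0.23 with the cortex mean and -0.61 with the chromaffin mean as a covariate. The replicate block joins arrays by number alone, and numbers 5 to 8 occur only in hyperplasia. Those arrays add nothing to the differences in that fit, so its lost calls, changed signs and counts say little. The cortex means of lesion and wild-type arrays did not overlap, which limits that fit too. The Pdyn fall had these further values. It was -1.17 to -0.76 with 1 array left out, where 3 arrays ended the call. Its difference in hyperplasia was 0.031 with the cortex mean. Penk was 0.36 in hyperplasia with the cortex mean, and -0.74 to -0.27 with 1 array left out. In pheochromocytoma it was 0.084 with the Xist level, 0.62 with the replicate block, 1.26 with the cortex mean and -0.41 to 0.14 with 1 array left out. Among differences near 0 and not called, the dimmer Pdyn probe set changed sign in the contrast of lesion effects (0.0087 with the replicate block, 0.072 with the chromaffin mean, -0.33 to 0.069 with 1 array left out), between older and young wild type (-0.089 with quantile normalization, -0.074 with the cortex mean, -0.29 with the chromaffin mean, -0.18 to 0.22 with 1 array left out) and between pheochromocytoma and hyperplasia (0.028 with the replicate block). Penk did so between older and young wild type (0.11 with the chromaffin mean) and between pheochromocytoma and hyperplasia (-0.16 to 0.39 with 1 array left out), and Pomc in the contrast of lesion effects (-0.012 with the chromaffin mean, -0.041 to 0.21 with 1 array left out). With 1 array left out Pomc ranged from -0.44 to -0.19 in hyperplasia and from -0.34 to -0.12 in pheochromocytoma. Between pheochromocytoma and hyperplasia it passed with quantile normalization (-0.27). The causes were not tested.

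In hyperplasia 2296 probe sets passed. The count was 689 without the 4 hyperplasia arrays whose Xist level went against the label, 556 with the replicate block, 391 with the cortex mean, 1393 with gene means (fewer features) and 564 to 2687 with 1 array left out. In pheochromocytoma it was 4425, against 1915 with only the groups compared, 1593 with the replicate block, 115 with the cortex mean, 475 with the chromaffin mean, 2407 with gene means and 596 to 4781 with 1 array left out. In the contrast of lesion effects it was 8, against 0 with the replicate block and 0 to 649 with 1 array left out, the 649 without older wild-type replicate 1. Between older and young wild type it was 7366, against 3770 with only the groups compared, 3242 with the chromaffin mean, 3447 with gene means and 4500 to 7681 with 1 array left out, and between pheochromocytoma and hyperplasia 12631, against 5563 with gene means. Deviations of arrays that share a replicate number correlated at -0.076 to 0.053, so the numbers did not pair the samples. The filter on dim probe sets left out the dimmer Pdyn probe set, which has no value there. Pools of few animals in each wild-type arm, and values near the first quartile for Pomc and the dimmer Pdyn probe set, limit what can be seen.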
